A study of Mus musculus with 16 samples.

Results

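CD4 T cells of rejecting mouse kidney allografts are described here from droplet scRNA-seq of CD45+ cells, in which every captured mRNA molecule is counted once by its unique molecular identifier (UMI). The members were chosen by the measured UMIs of 10 genes. A cell entered the CD4 gate when it had at least 2 UMIs summed over Cd3e, Cd3d, and Cd3g, at least 1 UMI of Cd4 or Cd40lg, and no UMI of Cd8a, Cd8b1, C1qa, Lyz2, or Cd79a. This gate held 251 of the 11948 CD45+ cells, 96 cells in kidney library 1 and 155 cells in kidney library 2. Cells with the same CD3 limit, a Cd8a or Cd8b1 UMI, and no Cd4 UMI formed the CD8 gate, which held 2082 cells (1157 and 925). The same gates in naive spleen held 3124 and 5652 of 47060 cells in 5 libraries.

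The rejecting grafts were B6 kidneys that had been placed in DBA/2J recipients 1 week before, by the study's methods, whereas the label of this matrix gives the strain as C57BL/6J and the genotype as WT. Naive spleen came from untreated C57BL/6J WT mice. The study used male mice, and their ages at collection are not given in the sources used here. Kidneys were perfused and digested with collagenase, spleens were not, and viable CD45+ cells were sorted from both. The study's methods treat each mouse as its own sample and pool the replicates of a time point. No source used here ties the library tags in the cell barcodes to mice. The p-values thus refer to a spread between these libraries, which may be technical. Between the gates in kidney, 2 libraries say little about the spread of a single gene. The edgeR fit takes that spread largely from all genes together, so very small p-values there do not measure the spread of the gene itself. Kidney and spleen differ in tissue, strain, transplantation, and digestion at once, and these cannot be told apart.

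CD4 T cells recognize peptides on MHC class II molecules and act on other cells by secreted cytokines and by membrane ligands such as CD40 ligand, the product of Cd40lg. Their classes are usually told apart by transcription factors and cytokines: T-bet and IFN-γ in type 1 cells, GATA-3 and IL-4 in type 2 cells, IL-17 in type 17 cells, BCL6 and IL-21 in follicular helper cells, and FOXP3 in regulatory T cells. In a rejecting allograft they are known as helpers of CD8 T cells, B cells, and macrophages, and as cells that can restrain these.

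The CD4 gate held 637000 UMIs in all (185742 and 451258 in libraries 1 and 2), and the median cell had 2110 UMIs. The CD8 gate held 6699468 UMIs, 2522 in its median cell, and the median cell of the CD4 gate of naive spleen had 3721.5. Levels are given as CPM, the UMIs of a gene scaled by all UMIs of the gate and library, and differences as log2 fold changes with the SE of the edgeR quasi-likelihood fit. In 10 gate cells the CD3 sum was 2, just at the limit, and their summed Icos level was 711 CPM. Another 10 cells met every other part of the rule with 1 CD3 UMI, had an Icos level of 198 CPM, and carried 4690 CPM of Cst3, a gene of dendritic cells and macrophages. Of the 464 cells with the CD3 limit, a helper gene, and no CD8 UMI, 199 had a Lyz2 UMI, 74 a C1qa UMI, and 3 a Cd79a UMI. For 63 of these cells a single Lyz2 UMI was the only reason for exclusion. Within the gate, 203 cells had Cd4 alone, 20 had Cd40lg alone, and 28 had both.

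The share of CD45+ cells in the CD4 gate was 1.79% in kidney library 1 (95% Clopper-Pearson interval 1.45% to 2.18%, counting error only) and 2.36% in library 2 (2.01% to 2.76%), a mean of 2.07%. In naive spleen it was 6.73% ± 1.27 (SD, n = 5), and the libraries ranged from 5.43% to 8.34%. Both kidney libraries thus lay below all spleen libraries (exact permutation test, two-sided, p = 0.0952, the smallest that 2 libraries against 5 allow). With cells kept that had a UMI of C1qa, Lyz2, or Cd79a, the mean kidney share was 3.82%, so the exclusion took almost as many cells as it left. The gate misses CD4 T cells without a Cd4 or Cd40lg UMI. Of 131 CD45+ kidney cells with an Il21 UMI, 38 were in the CD4 gate, 4 in the CD8 gate, 38 had CD3 but no UMI of the helper or CD8 genes, and 36 had been excluded for C1qa, Lyz2, or Cd79a. Of 122 cells with a Foxp3 UMI, 20 were in the CD4 gate, 29 in the CD8 gate, and 42 had CD3 without helper or CD8 UMIs.

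The label was checked against its 4 markers. Cd4 and Cd40lg, which the rule used, were at 705 and 583 CPM and at 108 and 84.2 CPM in the libraries. Icos, a costimulatory receptor, was at 883 CPM in library 1 and 714 CPM in library 2 of the CD4 gate, against 289 and 165 CPM in the CD8 gate. Izumo1r, which encodes folate receptor 4, was at 258 and 140 CPM against 16.4 and 14.0 CPM. The gates did not overlap for either gene, and since both genes were chosen as markers with these cells known, the levels are a description with no test. Zbtb7b, the factor that fixes the CD4 lineage, was low in both gates, at 32.3 and 35.5 CPM against 10.4 and 9.45 CPM. Runx3, its counterpart of the CD8 lineage, was at 124 and 146 CPM in the CD4 gate, below the 598 and 681 CPM of the CD8 gate. After thinning each cell to 1000 UMIs, an Icos UMI was found in 53.4% of CD4 gate cells, in 19.2% of CD8 gate cells, and in 0.699% of cells with C1qa and no CD3 UMI, which should lack it (unthinned medians of 2110, 2522, and 2737.5 UMIs). The data did not go against the label.

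Markers of other cells were in part present. The 14 myeloid genes listed summed to between 740 and 1448 CPM in the CD4 gate, with Cd74, Cst3, and H2-Aa among them, and to between 2768 and 6975 CPM in the CD8 gate, where no exclusion applied and where 762 of 2082 cells had a UMI of C1qa, Lyz2, or Cd79a. Of 12 genes of kidney parenchyma 11 were at 0 in the CD4 gate, as were all 4 hemoglobin genes, the B cell factor Pax5, and the NK cell receptors Ncr1 and Klra8. The 8 genes of NK, γδ, and innate-like T cells summed to between 10.8 and 19.9 CPM, against 113 to 370 CPM in the CD8 gate. Of these, a Trgv2 UMI was found in 26.8% of CD8 gate cells and 1.59% of CD4 gate cells, while Trdc had 16 and 2 UMIs. The rule used no gene of this list. It excluded cells with a C1qa, Lyz2, or Cd79a UMI from the CD4 gate alone. The comparison was therefore also made with the same exclusion on the CD8 gate. The 6 B cell genes listed summed to 172 to 244 CPM in the CD4 gate and 164 to 170 CPM in the CD8 gate. Most of these sums was Ighm. It was at 118 and 239 CPM in the CD4 gate and at 136 and 155 CPM in the CD8 gate. An Ighm UMI was found in 27.1% of CD4 gate cells and 31.7% of CD8 gate cells. For Cd74, of the myeloid list, these shares were 37.8% and 49.1%. Of the CD4 gate cells, 18 were in the matrix that the authors deposited as CD8+ T cells, and 1 shared its barcode sequence with a cell of the other library.

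The first comparison asked how CD4 gate cells differ from CD8 gate cells of the same grafts. CD4 gate cells had more RNA of helper and regulatory genes (Tnfrsf4, Ctla4, Il21, Maf) and of the memory factor Tcf7, and less of Gzmb, Gzma, Prf1, and Xcl1. Of 9905 genes tested, 401 (4.05%) were higher and 464 (4.68%) lower in the CD4 gate at an adjusted p under 0.05 (edgeR quasi-likelihood test with the library as a block, Benjamini-Hochberg). With the same exclusion on the CD8 gate, 203 of 8708 genes (2.33%) were higher and 100 (1.15%) lower, and 278 of the 865 calls were kept. DESeq2 kept 221 of them. In all of 10 alternatives 87 higher and 40 lower genes kept their call, with a gene that could not be tested counted as lost. These 10 do not include the fits without the library block, without the filter on low counts, or with the excluded cells kept. Without the library block 9 genes were called.

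**Figure D1:**
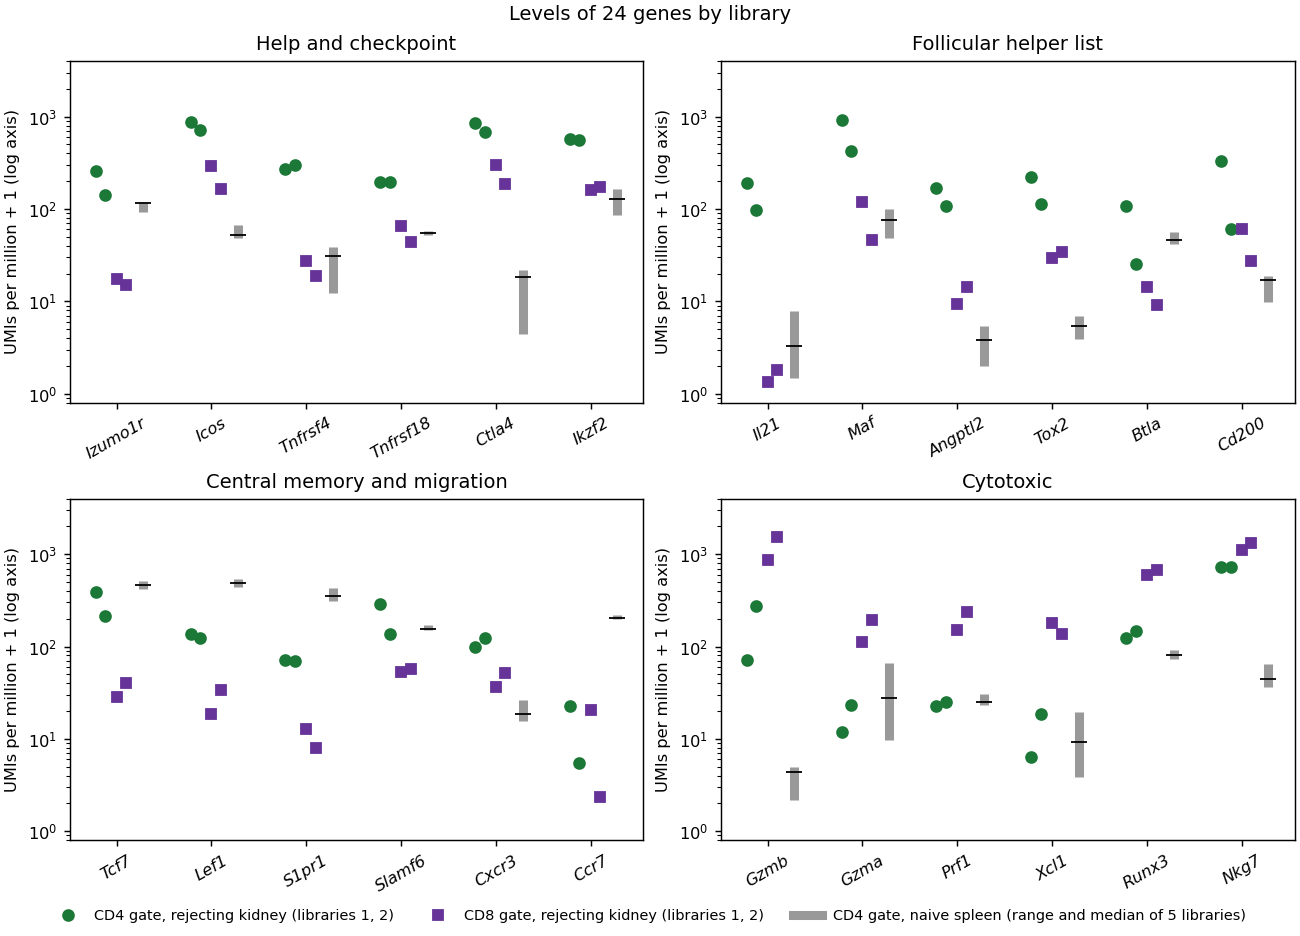
CPM plus 1 (log axis) of 24 genes in the CD4 gate (green circles) and CD8 gate (purple squares) of kidney libraries 1 and 2, left to right, and in the CD4 gate of 5 naive spleen libraries (grey range, black median). The green points lie above the purple ones for the 6 genes of the help and checkpoint panel and below them for the 6 genes of the cytotoxic panel, and the Il21 points of the CD8 gate lie at 0.334 and 0.81 CPM.

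Of the 13 genes listed for CD4 lineage and help, 11 were higher in the CD4 gate, 0 were lower, and the median log2 difference was 1.65, against −0.02 over all genes tested. With the same exclusion 9 were higher. These counts include Icos and Izumo1r, which were chosen as markers and carry no test. Tnfrsf4, which encodes the costimulatory receptor OX40, was at 269 and 301 CPM in the CD4 gate and at 26.4 and 17.8 CPM in the CD8 gate, a log2 difference of 3.75 (SE 0.22, adjusted p = 1.81e-60). Every CD4 value lay about an order of magnitude above every CD8 value. Tnfsf8, the ligand of CD30, was at 75.4 and 31.0 against 7.35 and 1.62 CPM (log2 difference 3.68, SE 0.56, adjusted p = 2.84e-09). The adhesion receptor gene Cd2 and the costimulatory receptor gene Cd28 were higher by 1.27 and 1.22 on the log2 scale, and Cd5, an inhibitor of receptor signalling, by 1.40. The call of Zbtb7b (log2 difference 1.80, SE 0.50, adjusted p = 0.00586) was lost in DESeq2, without dividing cells, and without library 2.

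Of the 20 genes of the regulatory list, 16 passed the filter on low counts, 9 were higher, and 0 were lower (8 of 15 higher with the same exclusion). Foxp3 was at 37.7 and 75.3 CPM in the CD4 gate and at 6.68 and 4.86 CPM in the CD8 gate, from 41 and 38 UMIs (log2 difference 3.39, SE 0.48, adjusted p = 1.21e-10). The groups did not overlap, and the call was lost without library 2. Library 1 held 7 of these UMIs in 4 cells. Ctla4, a checkpoint receptor that conventional T cells also take up after activation, was at 845 and 689 against 297 and 184 CPM (log2 difference 1.72, SE 0.13, adjusted p = 4.29e-37). Ikzf2, which encodes the factor Helios, was at 576 and 552 against 160 and 171 CPM, a log2 difference of 1.76 (SE 0.14). Tnfrsf18, the receptor GITR, was at 194 and 193 against 64.1 and 42.4 CPM, a log2 difference of 1.94 (SE 0.21). Il10, an inhibitory cytokine, was at 113 and 46.5 against 6.68 and 2.43 CPM, a log2 difference of 4.13 (SE 0.48, adjusted p = 2.01e-15). The chemokine receptor gene Ccr8 and the integrin gene Itgb8, which activates TGF-β, were higher by 4.21 and 4.03 on the log2 scale. Of the genes not called, Nrp1 was at 334 and 277 against 245 and 310 CPM and Entpd1 at 167 and 239 against 309 and 257 CPM, so that the gates overlapped for Nrp1 and not for Entpd1.

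The follicular helper list had a median log2 difference of 2.12, with 8 of 10 tested members higher and 1 lower, and the same counts held with the same exclusion. Il21, which lies on chromosome 3 of GRCm38 from 37222759 to 37232636 and encodes a cytokine that acts on B cells and CD8 T cells, was at 188 and 97.5 CPM in the CD4 gate and at 0.334 and 0.81 CPM in the CD8 gate. Its 79 UMIs came from 14 cells of library 1 and 24 cells of library 2, with at most 7 UMIs in a cell, while the CD8 gate had 4 UMIs in its 2082 cells (log2 difference 7.67, SE 0.52, adjusted p = 2.61e-46). Maf, a factor that drives Il21 and Il10, was at 915 and 423 against 117 and 45.1 CPM (log2 difference 3.09, SE 0.15). Macrophages also express Maf, and it was found in 20.04% of the thinned C1qa cells, against 38.6% of the CD4 gate and 4.76% of the CD8 gate. Angptl2 was higher by 3.54, the factor gene Tox2 by 2.29, and Btla, an inhibitory receptor, by 2.38. The 2 genes that define the class were low. Bcl6 was at 37.7 and 53.2 against 18.4 and 18.1 CPM (log2 difference 1.38, SE 0.38, adjusted p = 0.00483, lost in DESeq2, without dividing cells, and without library 2). The homing receptor gene Cxcr5 was at 5.38 and 19.9 CPM from 10 UMIs, below the filter of this fit. The CD8 gate had 11 and 10 Cxcr5 UMIs among its 2993922 and 3705546 UMIs in the libraries. Pdcd1, which encodes PD-1, was the member below the CD8 gate, at 269 and 308 against 453 and 435 CPM (log2 difference −0.60, SE 0.15, adjusted p = 0.00106), and lost its call in DESeq2, without dividing cells, and without library 1.

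**Figure D2:**
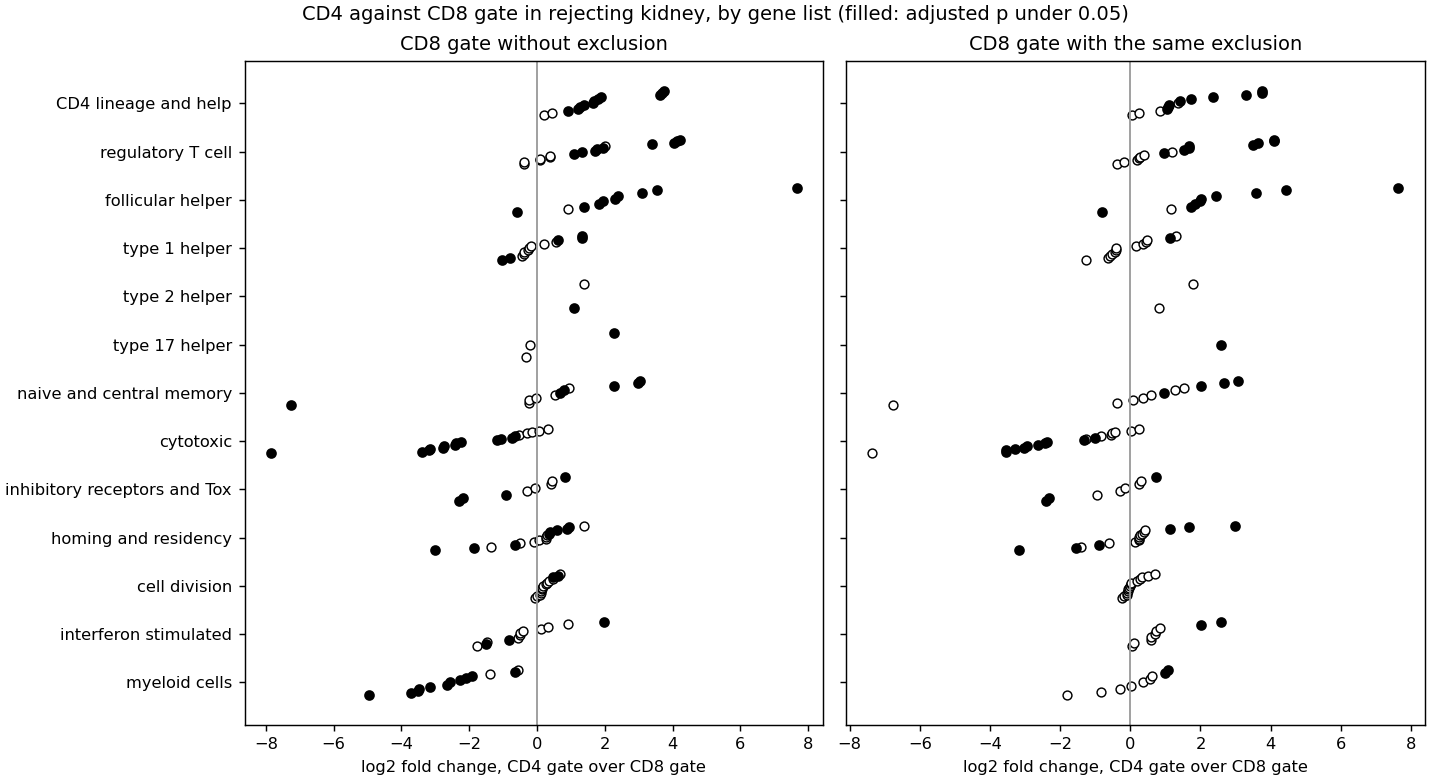
Log2 fold change of the CD4 gate over the CD8 gate in rejecting kidney for each tested gene of 13 lists, without an exclusion on the CD8 gate (left) and with the same exclusion (right); filled points have an adjusted p under 0.05. The follicular helper point near 7.67 is Il21, the cytotoxic and the naive points left of −6 are Eomes and Dapl1, which had no UMI in the CD4 gate, and the myeloid points move from a median of −2.57 to 0.35 with the same exclusion.

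The type 1 list was split. The type 1 factor Tbx21 was at 48.5 and 70.9 CPM in the CD4 gate against 93.2 and 77.5 CPM (log2 difference −0.39, SE 0.27, adjusted p = 0.537), and Ifng, the cytokine of the class, was at 167 and 115 against 141 and 168 CPM (log2 difference −0.23, SE 0.20, adjusted p = 0.672). Ifng values of the gates overlapped, and a difference was not detectable at this depth. The chemokine receptor gene Cxcr3 was higher, at 96.9 and 122 against 35.1 and 51.3 CPM (log2 difference 1.32, SE 0.26), as were Il12rb2 and Stat4 of the IL-12 pathway, while 2 members were lower, Fasl (−1.03) among them. With the same exclusion Cxcr3 was the 1 member called, and without library 2 and in DESeq2 its call was lost too. Gata3, the type 2 factor, was at 59.2 and 46.5 against 25.1 and 23.2 CPM (log2 difference 1.09, SE 0.36, adjusted p = 0.0294), and this call was lost with the same exclusion, in DESeq2, and without either library. Il4 had 2 UMIs, and Il5 and Il13 had none. Of the type 17 cytokines, Il17a, Il17f, and Il22 had none. Rora, which type 17 and innate-like cells share, was at 307 and 109 against 48.8 and 29.4 CPM (log2 difference 2.28, SE 0.23, adjusted p = 1.7e-20), and it kept its call in all 10 alternatives.

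Of 18 cytotoxic genes 13 were lower in the CD4 gate and 0 were higher, with a median log2 difference of −1.70, and 10 stayed lower with the same exclusion. Gzmb, which encodes granzyme B, was at 70.0 and 273 CPM against 875 and 1537 CPM (log2 difference −2.75, SE 0.14, adjusted p = 2.2e-79). Prf1, which encodes perforin, was at 21.5 and 24.4 against 149 and 238 CPM (log2 difference −3.15, SE 0.30), and the chemokine gene Xcl1 at 5.38 and 17.7 against 181 and 134 CPM (log2 difference −3.40, SE 0.35). These genes did not overlap between the gates in either library. Nkg7, a gene of cytotoxic granules, was less different, at 732 and 734 against 1118 and 1324.5 CPM (log2 difference −0.75, SE 0.11, adjusted p = 4.95e-10). Eomes, a factor of CD8 and NK cells, had no UMI in the CD4 gate and 107 UMIs in the CD8 gate, at least 3.39-fold lower with a floor of 3 counts over the gate. It was not called in DESeq2, with the same exclusion, without dividing cells, or without library 2. Ccl3 and Ccl4, inflammatory chemokines, were at 226 and 73.1 and at 339 and 160 CPM in the CD4 gate, against 118 and 124 and 237 and 143 CPM, and did not pass the test. Ccl5 was at 867 and 326 against 2332 and 271 CPM, and without library 1 its log2 difference of −0.64 turned to 0.27.

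Of the genes of naive and central memory cells, the CD4 gate was higher in 5 of 11 members (Tcf7, Lef1, S1pr1, Satb1, and Bach2) and lower in 1, Dapl1, which had no UMI in the CD4 gate and 69 in the CD8 gate. Dapl1 was not called with TMM factors, in DESeq2, with the same exclusion, without dividing cells, without called doublets, or without either library. With the same exclusion 4 members were higher and 0 lower. Tcf7, which encodes the factor TCF-1, was at 388 and 211 CPM against 27.1 and 39.1 CPM (log2 difference 3.04, SE 0.21, adjusted p = 1.42e-44), and its call was lost when dividing cells were left out. Lef1, a related factor, was at 135 and 122 against 17.4 and 32.9 CPM (log2 difference 2.27, SE 0.27). S1pr1, the receptor that lets T cells leave tissue, was at 70.0 and 68.7 against 11.7 and 7.02 CPM (log2 difference 2.97, SE 0.40). The lymph node homing gene Ccr7 (21.5 and 4.43 against 19.4 and 1.35 CPM) was not called. Of the 16 genes of the homing and residency list, 5 were higher and 3 lower, and 3 and 3 with the same exclusion. Among them Itga1, a collagen-binding integrin of resident T cells, was at 43.1 and 26.6 against 344 and 216 CPM (log2 difference −3.01, SE 0.26). The monocyte and effector marker Ly6c2 was lower by 1.85, whereas Ly6a, which encodes Sca-1, was higher by 0.94. Among inhibitory receptors, Lag3 (253 and 153 against 153 and 135 CPM) and Havcr2 (151 and 62.0 against 106 and 120 CPM) were not called, Cd160 and Cd244a had log2 differences of −2.18 and −2.31, the first lost without either library, and Tox, a factor of chronically stimulated T cells, was at 2137 and 1536 against 951 and 1071 CPM (log2 difference 0.83, SE 0.10).

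Antigen receptor genes were slightly higher in the CD4 gate, 6 of 12 with 0 lower, led by Cd247, the ζ chain (log2 difference 1.14, SE 0.14), but Cd247 and Fyb alone were called with the same exclusion. Early response genes gave 3 of 11 higher (Egr1, Nfkbia, Junb) and Junb alone with the same exclusion. Of the interferon list, Ifi27l2a was at 592 and 1206 against 170 and 283 CPM (log2 difference 1.98, SE 0.13). Gbp2 and Iigp1, which IFN-γ induces in macrophages and T cells, had log2 differences of −1.51 and −0.82, which turned to 0.74 (adjusted p = 0.249) and 2.00 (adjusted p = 0.00213) with the same exclusion. The myeloid sum moves with that exclusion, and its part in these values was not tested. Of the myeloid list 11 of 13 members were lower and 0 were higher, and with the same exclusion 0 of 9 were lower and Cd74 and H2-Aa were higher. Trgv2, a γδ receptor segment, was at 5.38 and 11.1 against 346 and 106 CPM, and the B cell list had 0 calls among 2 members tested.

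By size, the largest rises beside Il21 and those above were Fstl1, Hs6st3, Tbc1d4, and St6gal1. Fstl1, a secreted glycoprotein gene, had 31 UMIs in the CD4 gate and none in the CD8 gate, but 24 of them were in 1 cell and 7 in another, so its difference rests on 2 cells. Hs6st3, a heparan sulfate sulfotransferase gene, had 94 UMIs in 27 cells, at 96.9 and 168 CPM against 1.67 and 3.78 CPM (log2 difference 5.56, SE 0.38). It could not be fitted with naive spleen, since the spleen matrices used here have no row for it. Tbc1d4, a Rab GTPase-activating protein, was at 581 and 288 against 28.7 and 30.5 CPM (log2 difference 3.75, SE 0.19, adjusted p = 4.62e-80). Of the largest falls, Gm44175 and Gm44174 lie between Cd8b1 and Cd8a on chromosome 6 of GRCm38 (from 71354351 to 71360829 on the minus strand and from 71353035 to 71373284 on the plus strand). Gm44174 was at 5.38 and 6.65 against 239 and 186 CPM, and Gm44175 had no UMI against 1464 UMIs, at least 46.4-fold lower. Since Cd8a and Cd8b1 defined the gates, these neighbors are close to the rule itself. C1qc, a complement gene of macrophages, had 2 UMIs in the CD4 gate and was 41.3 times higher in the CD8 gate (95% counting interval 11.4 to 342). Lrp1 and Ms4a6d had 1 UMI each and St3gal6 had 2, with ratios of 43.8 (7.83 to 1735), 36.4 (6.50 to 1442), and 25.2 (6.95 to 209). 2900026A02Rik and Pid1 had log2 differences of −4.24 and −4.12. With the same exclusion C1qc, Ms4a6d, and Pid1 lost their call and Lrp1 could not be tested. The rule left cells with C1qa or Lyz2 out of the CD4 gate alone, and the falls of C1qc, Ms4a6d, Pid1, and Lrp1 cannot be told apart from it.

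Shares of cells gave the same order as the levels. At 1000 UMIs per cell, a Tnfrsf4 UMI was found in 21.5% of CD4 gate cells (95% interval 16.6% to 27.1%) and 1.49% of CD8 gate cells, an Izumo1r UMI in 17.1% and 1.34%, an Il21 UMI in 7.57% (4.62% to 11.6%) and 0.0480%, and a Foxp3 UMI in 4.38% (2.21% to 7.71%) and 0.336%. The C1qa cells had shares of 0.0437% to 0.0873% for these 4 genes, so the CD4 gate lay far above that background. A Gzmb UMI was found in 9.96% of CD4 gate and 53.5% of CD8 gate cells (0.917% of C1qa cells), and an Ifng UMI in 9.96% and 10.7%. Without thinning, Icos, Izumo1r, Foxp3, and Il21 were found in 185, 77, 20, and 38 of the 251 cells.

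**Figure D3:**
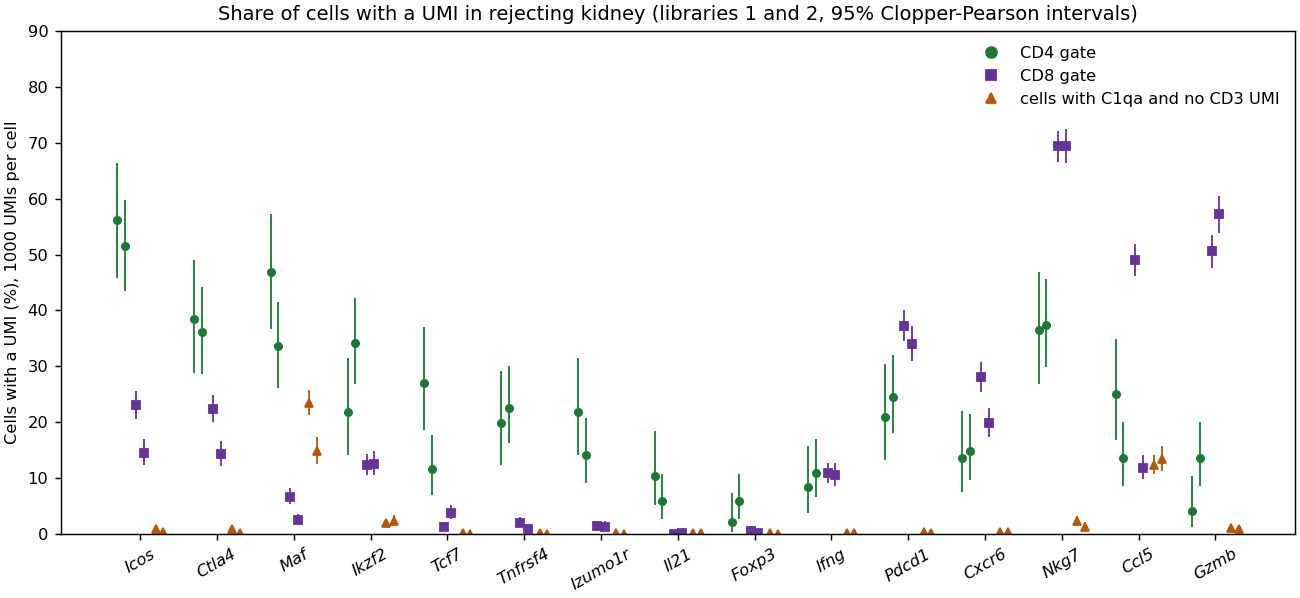
Percentage of cells with at least 1 UMI of 15 genes after thinning each cell to 1000 UMIs, for the CD4 gate (green), the CD8 gate (purple), and cells with C1qa and no CD3 UMI (orange) of kidney libraries 1 and 2, left to right, with 95% Clopper-Pearson intervals. Icos was found in 56.2% and 51.6% of CD4 gate cells and in 23.0% and 14.5% of CD8 gate cells, and the intervals of the gates overlap for Ifng.

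Within the CD4 gate, UMIs of Il21 and of Foxp3 were not found in the same cell. None of the 38 cells with an Il21 UMI had a Foxp3 UMI, which at this depth allows up to 1.20% of the 251 cells to have a UMI of both and sets no limit on cells that express both. Since 20 of the 251 cells had a Foxp3 UMI, few shared cells would be seen even if the genes were unrelated. Whether 0 lies below that number was not tested. Of the 38, 30 had an Icos UMI, 24 Ctla4, 18 Pdcd1, 12 Ifng, 6 Bcl6, and 1 Gzmb, where 185, 146, 111, 45, 20, and 40 of all 251 cells did. Of the 20 cells with Foxp3, 19 had Icos, 17 Ikzf2, 16 Ctla4, 13 Gzmb, 4 Izumo1r, and 2 Ifng, where 185, 94, 146, 40, 77, and 45 of all 251 did. Of the 45 cells with Ifng, 26 also had Pdcd1. These are unthinned counts of cells with a UMI, and a cell without one may still hold the RNA. At 1000 UMIs per cell, 19 cells had Il21. Of these, 10 had Icos, 8 Ctla4, 4 Pdcd1, 1 Ifng, 2 Bcl6, and 0 Gzmb, where 134, 93, 58, 25, 14, and 25 of all 251 did. Of 11 cells with Foxp3, 6 had Icos, 8 Ikzf2, 6 Ctla4, 5 Gzmb, 1 Izumo1r, and 1 Ifng, where 134, 74, 93, 25, 43, and 25 of all 251 did. Of 25 cells with Ifng, 7 had Pdcd1. The larger share of Ifng among Il21 cells was thus not seen after thinning. The share of Icos among Foxp3 cells was then close to that of the whole gate.

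The cells with and without a Foxp3 UMI were compared within each library. The 20 cells (4 and 16 in the libraries, median of 2699 UMIs) had higher levels of Ikzf2, Ctla4, Gzmb, and Ccr2 and lower levels of Itgb1 and Tcf7 than the other 231 cells (median of 2084 UMIs). Of 2605 genes tested, 11 (0.422%) were higher and 4 (0.154%) lower. Ikzf2 was at 4507 and 1515 CPM with Foxp3 and at 415 and 419 CPM without (log2 difference 2.53, SE 0.34), the single gene that DESeq2 also called. Ctla4 was at 1502 and 1716 against 818 and 547 CPM (log2 difference 1.38, SE 0.35, adjusted p = 0.021). Gzmb was at 410 and 876 against 56.0 and 189 CPM, a log2 difference of 2.32 (SE 0.51). Ccr2, a receptor for inflammatory chemokines, was at 546 and 767 against 207 and 179 CPM. Tcf7 had no UMI in the 20 cells and 167 UMIs in the others, and the integrin chain Itgb1 was at 683 and 383 against 1429 and 1778 CPM (log2 difference −1.91, SE 0.42). Il2ra, which encodes CD25, was at 137 and 475 against 157 and 124 CPM and was not called, and Icos was at 956 and 949 against 880 and 681 CPM. On the Foxp3 side of library 1 a single UMI is worth 137 CPM, and the count of calls fell to 7 with TMM factors and to 1 in DESeq2.

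The 2 kidney libraries were not alike. Cells with at least 2 of 5 genes of cell division made up 10.4% of the CD4 gate in library 1 (95% interval 5.11% to 18.3%) and 54.8% in library 2 (46.7% to 62.8%). The CD8 gate showed the same split, 14.2% and 65.6%, and 1.47% of CD4 gate cells of naive spleen were dividing. Birc5 was higher in library 2 than in library 1 by 2.68 on the log2 scale in the CD4 gate and by 2.44 in the CD8 gate, and Pclaf by 2.36 and 2.46. Genes lower in library 2 in the CD4 gate included Cd200 (334 and 59.8 CPM), Il7r (156 and 28.8 CPM), and Btla (108 and 24.4 CPM), which had log2 ratios of −2.47, −2.41, and −2.11 there and of −1.17, −1.25, and −0.72 in the CD8 gate. Whether animal, time of collection, or handling separates the libraries was not tested. Without dividing cells, 163 genes were higher and 184 lower in the CD4 gate than in the CD8 gate.

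**Figure D4:**
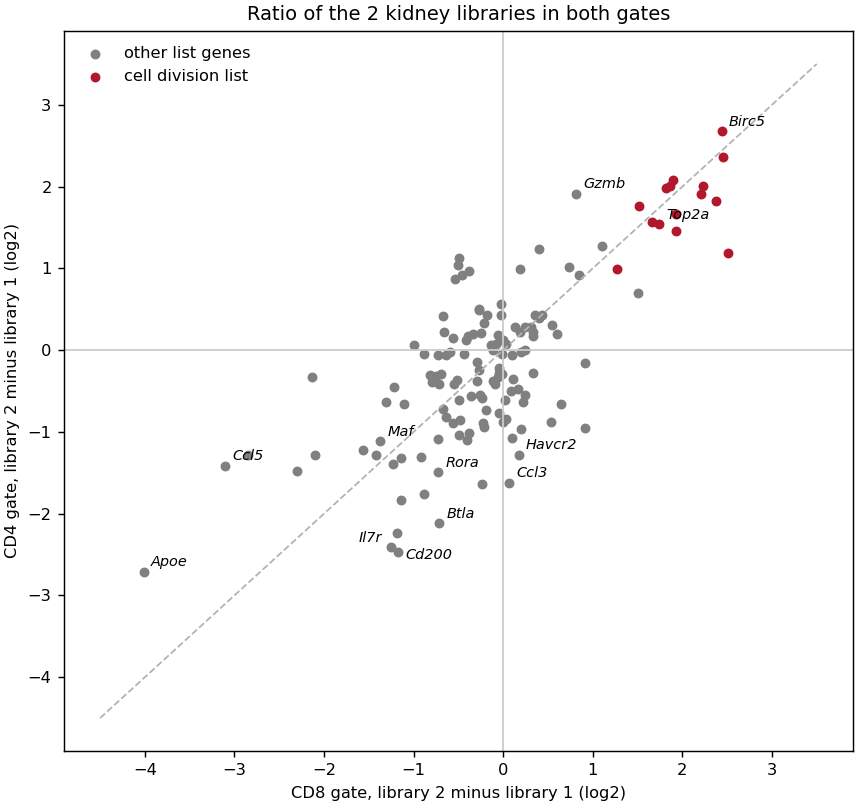
Log2 ratio of kidney library 2 to library 1 for list genes in the CD8 gate (horizontal) and in the CD4 gate (vertical), with cell division genes in red and the diagonal dashed. The red points lie at the upper right, with Birc5 at 2.44 and 2.68, and Cd200 and Il7r lie below the diagonal.

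Between the gates, 2 of 15 cell division genes were called higher in the CD4 gate (Mki67 and Top2a, log2 differences 0.62 and 0.47) and 0 with the same exclusion, and both lost their call without either library.

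CD4 gate cells of rejecting kidney were then set against those of naive spleen. In the graft they had higher levels of most tested genes of the inhibitory, type 1, and follicular helper lists and of all cell division genes listed. Levels of Ccr7, S1pr1, and Klf2 were lower. Of 9890 genes tested, 3597 (36.4%) were higher and 889 (8.99%) lower in kidney, with a median log2 difference of 0.44 over all genes. With TMM factors the counts were 2206 and 2101 and the median was −0.09, so differences near 0.44 carry no direction. The shift grew with intron length, from a median of −0.29 in the tenth of genes with the shortest introns to 1.33 in that with the longest. Mitochondrial genes took 1.18% of UMIs in kidney and 3.72% in spleen. The myeloid list summed to 199 to 457 CPM in the spleen gate, below both kidney libraries, and 6 of its 8 tested members were higher in kidney.

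All 15 cell division genes were higher in kidney. Mki67 was at 398 and 1099 CPM, against a lowest, median, and highest spleen value of 16.1, 26.6, and 28.3 CPM. Of the inhibitory list 7 of 8 were higher and 0 lower. Lag3 was at 253 and 153 CPM in kidney and at 1.47, 3.21, and 4.42 CPM in spleen (log2 difference 5.90, SE 0.30, adjusted p = 1.52e-12), and Havcr2 at 151 and 62.0 against 0, 0.979, and 1.20 CPM. The regulatory list had 14 of 18 higher and 1, Gpr83, lower, with Ctla4 at 3.39, 17.4, and 20.6 CPM in spleen (log2 difference 5.54, SE 0.22) and Foxp3 at 13.2, 16.96, and 26.5 CPM (log2 difference 1.65, SE 0.35, adjusted p = 0.000655, lost without kidney library 2). Thus every kidney value of these genes lay above every spleen value. The type 1 list had 10 of 13 higher, with Ifng at 6.36, 9.04, and 14.9 CPM in spleen (log2 difference 3.70, SE 0.31) and Tbx21 at 2.45, 6.78, and 8.43 CPM (log2 difference 3.29, SE 0.39). The follicular list had 7 of 11 higher and 1, the cytokine receptor gene Il6st, lower, with Il21 at 0.489, 2.26, and 6.83 CPM in spleen (log2 difference 5.56, SE 0.44). Gata3 was not called (spleen median of 58.8 CPM).

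Of 12 genes of naive and central memory cells 11 were lower in kidney and 1, Bach2, was higher (0.67), though it was not called with TMM factors, in DESeq2, without kidney library 1, or once the shift by intron length was taken out. Klf2, a factor of quiescent cells, was at 70.0 and 26.6 CPM in kidney and at 479, 537, and 570 CPM in spleen (log2 difference −3.74, SE 0.24). Ccr7 was lower by 4.44 and S1pr1 by 2.35 on the log2 scale. Dapl1 and Igfbp4 had no UMI in the kidney gate, at least 55.2-fold and 44.2-fold lower. Tcf7 was at 418, 462, and 511 CPM in spleen, a log2 difference of −0.74 (SE 0.17) that was lost without kidney library 2. Of the CD4 lineage and help list 8 of 13 were higher, Icos and Izumo1r included, but Cd28 (0.72) was no longer called in DESeq2, with TMM factors, or once the shift by intron length was taken out (0.07). As markers, Icos and Izumo1r are described with no test, at differences of 3.82 and 0.73, and of 3.51 and 0.40 after that step. Some of the genes with the largest differences were at 0 on 1 side. Trim12a, Ly6c1, and Ifi213 had no UMI in the kidney gate and 1970, 1279, and 811 UMIs in spleen. Stab2, Raet1e, and Cntnap2 had none in the spleen gate and 64, 57, and 35 UMIs in kidney. In the CD8 gate of the same grafts, Trim12a, Ly6c1, and Ifi213 were found in 3, 0, and 5 of 2082 cells. There Stab2, Raet1e, and Cntnap2 were found in 326, 149, and 301 cells, so these levels in kidney were not particular to the CD4 gate. Shares of cells with a UMI were compared for 34 genes. At 1000 UMIs per cell, Icos was found in 53.9% of kidney CD4 gate cells as a mean of the libraries and in 4.77% ± 0.74 of spleen cells (SD, n = 5), a description with no test. Il21 was found in 8.11% and 0.0966% ± 0.0907 (exact permutation test, p = 0.0952, adjusted p = 0.112 over 34 genes). The Foxp3 share overlapped between the tissues at this depth, at 2.08% and 5.81% in the kidney libraries and 1.54% to 2.28% in spleen (exact permutation test, p = 0.286, adjusted p = 0.313), but not at 500 UMIs per cell, where it was 4.17% and 3.87% against 0.577% to 1.33%, or with at least 3 CD3 UMIs, where it was 4.26% and 4.76% against 0.903% to 3.15% (p = 0.0952 in both by exact permutation, and 2 against 5 libraries cannot go lower). UMIs were drawn anew for each setting, library 1 had 2 to 4 cells with a Foxp3 UMI, and the part of the draw in this switch was not tested. At 1000 UMIs Btla, Slamf6, Xcl1, and Gata3 overlapped too.

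Last, the difference between the gates in kidney was tested against the difference in naive spleen, which removes shifts that both gates of a library share. Of the 12 naive and central memory genes 4, Tcf7, Lef1, and S1pr1 among them, were more in favor of the CD4 gate in the graft than in spleen, Gzmb and Itga1 more in favor of the CD8 gate, and Pdcd1 had another sign. Of 11735 genes, 266 (2.27%) had a more positive and 302 (2.57%) a more negative difference in kidney (233 and 112 in DESeq2). Tcf7 was at a median of 462 CPM in the CD4 and 392 CPM in the CD8 gate of spleen, and at 388 and 211 against 27.1 and 39.1 CPM in kidney (interaction 2.72 log2, SE 0.21, adjusted p = 1.11e-12). S1pr1 (349 and 278 CPM in the spleen gates) had an interaction of 2.75 and Lef1 (483 and 387 CPM) of 1.87. Slamf6, a receptor of memory and follicular cells, had one of 1.79, Cxcr3 of 1.56, and Tnfsf8 of 3.66. These 6 genes differed little between the gates of spleen and were higher in the CD4 gate of the graft.

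Nkg7 was higher in the CD8 gate of both tissues, at 43.1 CPM in the CD4 and 430 CPM in the CD8 gate of spleen, and the gap was narrower in kidney (interaction 2.40, SE 0.13, adjusted p = 1.98e-16). Ly6c2 had a narrower gap likewise, from 15.2 against 334 CPM in spleen (interaction 2.44, SE 0.31). Pdcd1 was at 8.84 CPM in the CD4 and 0.755 CPM in the CD8 gate of spleen, so its sign was opposite in kidney (interaction −4.18, SE 0.33, adjusted p = 2.67e-12). Ifng (9.04 against 3.33 CPM in spleen, interaction −1.84), Nrp1 (24.9 against 3.20 CPM, interaction −2.90), Fasl (10.3 against 1.96 CPM, interaction −3.36), and Il2ra (20.9 against 3.14 CPM, interaction −1.67) were likewise more of the CD4 gate in spleen than in the graft. Gzmb was low in both spleen gates (3.43 and 4.07 CPM) and had an interaction of −2.39, and Itga1 (2.26 and 1.47 CPM) one of −3.66. The interactions of Foxp3 (0.48, adjusted p = 0.731), Ctla4 (−0.26, adjusted p = 0.673), and Il21 (1.69, SE 2.55, adjusted p = 0.838) were not called, and the median Il21 level in the CD8 gate of spleen was 0 CPM. Zbtb7b had an interaction of −1.60 that was lost with the same exclusion and without kidney library 2.

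**Figure D5:**
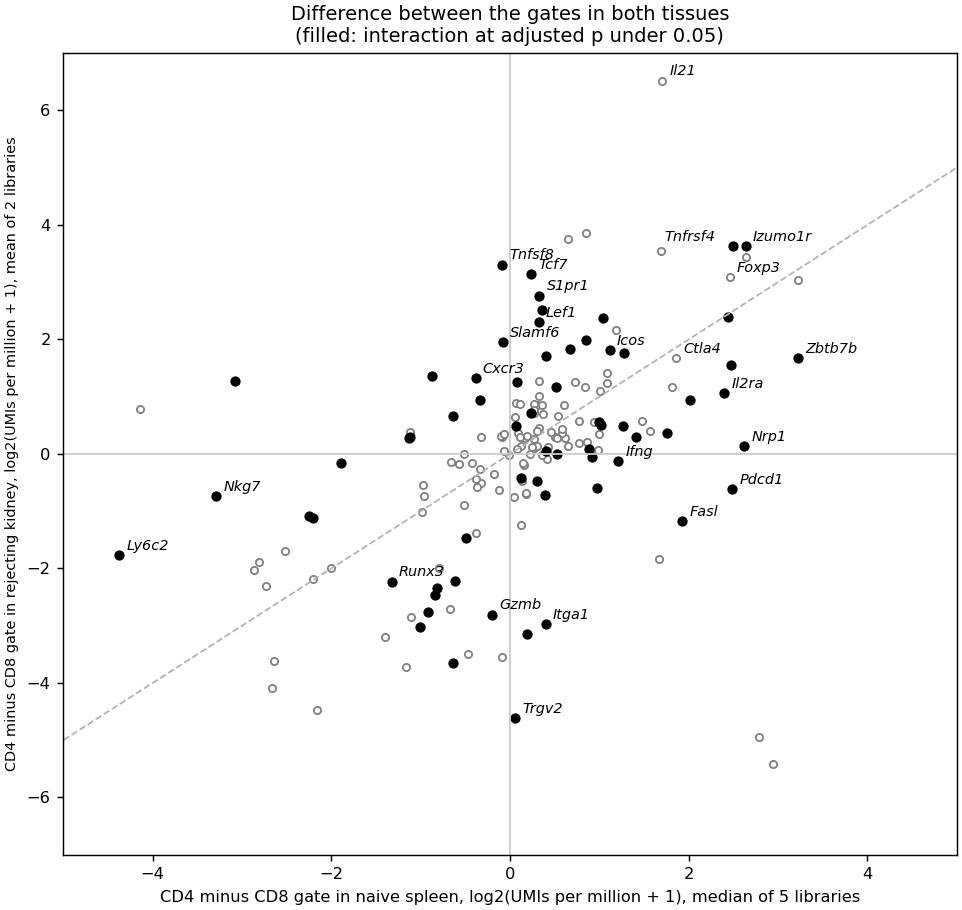
CD4 minus CD8 gate difference in naive spleen (horizontal, median of 5 libraries) and in rejecting kidney (vertical, mean of 2 libraries), in log2 of CPM plus 1, for 172 list genes with at least 20 CPM; filled points are the 64 genes with an interaction at an adjusted p under 0.05, and the dashed line marks equal differences. Tcf7, S1pr1, Lef1, and Slamf6 lie near 0 in spleen and above 0 in kidney, Pdcd1 and Ifng lie right of the dashed line and below 0 in kidney, and Nkg7 and Ly6c2 lie at the left.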

How the data were processed

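Viable CD45+ cells of rejecting mouse kidney allografts and naive spleen had been profiled by 10x Chromium 3′ scRNA-seq, aligned to mm10 (named in the submitters' processing notes), and filtered by the authors on UMIs, expressed genes, and mitochondrial reads, at limits not given in the sources used here. The deposited values are raw UMI counts per cell. Libraries were told apart by the tags of the cell barcodes (2 of kidney, 5 of spleen). The members, gene lists, and tests were chosen with earlier results of these data known.

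UMI counts were summed per gate and library (185742 and 451258 UMIs in the kidney CD4 gate) and tested with edgeR 4.0.16 (quasi-likelihood, plain library totals, filterByExpr, R 4.3.3), with p-values adjusted by Benjamini-Hochberg across every gene of a fit. Comparisons of gates within libraries had the library as a block, since both gates come from the same library. DESeq2 1.42.0, TMM factors, no filter, other gate rules, and leaving out each library were alternatives. Between the gates in kidney, a library was left out in a joint fit with spleen, where the lone kidney library is assumed to vary like the spleen libraries. Shares of cells were thinned to 1000 UMIs, with Clopper-Pearson intervals (scipy 1.17.1) that cover counting error only. Doublets were called with the Scrublet method of scanpy 1.11.5. It marked 468 of 5377 cells in kidney library 1 and 8 of 6571 in library 2. In the kidney gates it marked 1 of 251 CD4 gate cells and 174 of 2082 CD8 gate cells, 172 of the latter in library 1. It was taken not to have worked in library 2, which was not tested. No cell was removed except in the fits without called doublets. Scripts were tested on simulated counts. Named genes were the markers and class-defining genes, up to 4 further called members of a list, and the 8 largest rises and falls with at least 50 CPM. Birc5, Pclaf, Il7r, Cd69, Cst3, Fyb, Satb1, Gpr83, and Il6st were named after their values were seen. The other matrices of the series were not used here, and a few genes of the lists are counted but not reported singly here.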

Additional observations from a re-analysis of the deposited data

Results flagged for a closer look

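Of 28 groups of 5 spleen libraries tested for a stray library, 2 held one, and chance gives about 1 in 20. Ctla4 in the CD4 gate was at 3.39 CPM in 1 spleen library, below the others, and Eomes at 11.3 CPM in 1, above the others.

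For the genes below, named in every comparison or for the size of the interaction, the difference between the CD4 and CD8 gates was not the same in rejecting kidney as in naive spleen (interaction, adjusted p under 0.05 in edgeR's quasi-likelihood test). Among lineage, help, and regulatory genes the interaction was −1.60 on the log2 scale for Zbtb7b, −1.67 for Il2ra, 0.53 for Ikzf2, 1.32 for Tnfrsf4, 1.27 for Tnfrsf18, and 3.66 for Tnfsf8. The values of 1.01 for Izumo1r and 0.63 for Icos are descriptions with no test, since both were chosen as markers. Among effector and memory genes it was −1.84 for Ifng, 3.15 for Cxcr5 (10 UMIs in the kidney CD4 gate), 2.72 for Tcf7, −0.89 for Runx3, −2.39 for Gzmb, 1.38 for Ccl5, 2.40 for Nkg7, −4.18 for Pdcd1, and −1.78 for Lag3.

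The largest interactions among other genes were positive for Ms4a1 (4.42), Fstl1 (11.89), Ebf1 (5.40), Ccr9 (5.004), Fam241a (3.53), St6gal1 (3.18), and Nsg2 (3.11). Ms4a1 and Ebf1 are B cell genes, and the CD8 gate of spleen held B cell RNA (1056 to 2935 CPM over the list, against 335 to 412 CPM in the CD4 gate). Its part in these values was not tested. The value of Fstl1 rests on 2 cells of the kidney CD4 gate, that of Ms4a1 on 2, that of Ebf1 on 1, and that of Ccr9 on 5. The interaction was negative for Pid1 (−5.57), Gbp2b (−5.31), Pdlim4 (−5.26), Ms4a6d (−4.37), Lzts1 (−4.36), Chn2 (−4.17), and Cxcl10 (−3.99). The CD8 gate of kidney held myeloid RNA (2768 to 6975 CPM over the list, against 740 to 1448 CPM in the CD4 gate). Gbp2b, Pdlim4, Ms4a6d, and Cxcl10 were no longer called with the same exclusion in the CD8 gate, nor were Ms4a1 and Ebf1 among the positive interactions.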

How the results depend on the processing

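Counts here are all calls made under a setting. Between the gates in kidney 865 genes were called, and 733 to 973 with TMM factors, no filter, Cd4 alone, at least 3 CD3 UMIs, or a joint fit with spleen. The count was 221 in DESeq2, 303 with the same exclusion, 347 without dividing cells, 450 without called doublets, 1564 when cells with C1qa, Lyz2, or Cd79a were kept (chosen after seeing the data), and 532 to 576 without 1 kidney library, which was left out in the joint fit, where all libraries gave 973. Without the replicate block, which pairs the gates of a library, it was 9. Against spleen, the count was 4486, and 2380 to 4348 without 1 library, the lowest without kidney library 2. For the difference of differences it was 568, and 345 in DESeq2 and 303 to 591 without 1 library. For cells with and without Foxp3, where 15 genes were called, the count was 7 with TMM factors, 1 in DESeq2, 5 without a filter, and 10 without the block. The causes were not tested.

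The gate's mean share of CD45+ cells was 3.82% in kidney and 8.34% in naive spleen with the excluded cells kept. The share of cells with an Icos UMI was 73.2% unthinned, 33.6% at 500 UMIs, and 51.6% to 56.3% by library. For Izumo1r these were 31.2%, 8.43%, and 14.2% to 21.9%. For Il21 they were 15.0%, 3.70%, and 5.81% to 10.4%. Foxp3 was at 7.24% unthinned, 4.02% at 500 UMIs, and 2.08% to 5.81% by library.

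Of the myeloid list, 11 of 13 members were lower in the CD4 gate, and with the same exclusion 0 of 9 were lower and 2 higher. Among genes named singly, these reversed. Ccl5 ran from −1.43 to 0.27 without 1 kidney library. With the excluded cells kept, the CD4 minus CD8 difference was −0.14 for Top2a, 0.95 for Gbp2, 1.24 for Iigp1, 1.23 for C1qc, 0.67 for Arg1, 0.71 for Cd68, 0.99 for Apoe, 0.85 for Lrp1, 0.82 for Ms4a6d, and 1.07 for Pid1. With the same exclusion it was 0.74 for Gbp2 and 2.00 for Iigp1, and their interactions were 1.06 and 1.24. Against spleen, Zbp1 ran from −0.12 to 1.18 without 1 library, and the interaction of Ebf1 from −2.09 to 6.04.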

Other observations

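Genes of the tissue homing list also separated CD4 gate cells of the graft from those of naive spleen. Of 15 tested members 11 were higher and 2 lower in kidney, against 36.4% higher and 8.99% lower over all genes tested. Itgb1, the β1 integrin chain, was at 1400 and 1609 CPM in the kidney libraries and at 82.2, 110, and 127 CPM as the lowest, median, and highest value in spleen (log2 difference 3.77, SE 0.13). Ccr2, a receptor for inflammatory chemokines, was at 221 and 250 CPM against 13.0, 13.8, and 20.5 CPM (log2 difference 3.97, SE 0.20). Neither gene was particular to the CD4 gate. In the CD8 gate of the same grafts Itgb1 was at 806 and 1225 CPM and Ccr2 at 301 and 228 CPM. The lower members were Cd69 (−1.51) and Itgb7 (−0.50).

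Of 11 early response genes 2 were higher in kidney (Nr4a1, 1.34, and Tnfaip3, 1.69) and 2 lower (Fos, −1.58, and Jun, −1.08), against 36.4% higher and 8.99% lower over all genes tested. The tissues had been dissociated differently, and this cannot be told apart from the graft itself.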
